A study of Mus musculus with 21 samples.

Results

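Matrix metalloproteinases (MMPs) and the tissue inhibitors of metalloproteinases (TIMPs) were followed here through 8 genes, Mmp2, Mmp3, Mmp14, Mmp15, Timp1, Timp2, Timp3 and Timp4. They were taken by gene name from the 19096 genes of the deposited gene matrix, all 8 were found, and all 8 passed the filter on low counts. The study modelled heart failure with a preserved ejection fraction in mice by combining obesity from diet with hypertension from renin, and compared the hearts with those of mice given 1 of the 2 alone or neither. All mice were male C57BL/6NJ, 8 to 10 weeks old when randomized to chow or to a high-fat diet with 60% of its energy as fat, for 10 weeks. A second randomization gave an adeno-associated virus carrying renin (AAV-Renin) or a null vector by retro-orbital injection, and hearts were freeze-clamped 6 weeks later. Chow without renin is called control (n = 4), chow with renin is renin-alone (n = 6), high-fat diet without renin is diet-alone (n = 6) and high-fat diet with renin is combined (n = 5). The sample titles label both groups without renin novirus, while the study's text gives them a null vector, so what they received is not settled. The promoter that drives renin and the heart chambers taken are not given in the sources used here.

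MMPs are zinc-dependent endopeptidases that cut collagens, laminins, fibronectin and other proteins of the extracellular matrix, and most are made as inactive proenzymes. TIMPs bind the active site of MMPs and block it, while TIMP2 bound to the membrane enzyme MMP14 also serves as the docking site at which pro-MMP2 is activated. In the heart these enzymes and inhibitors are studied in remodelling of the matrix after pressure load, and cardiac fibroblasts are one of their sources.

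Among the enzymes, Mmp2 (gelatinase A, ENSMUSG00000031740) lies at chr8:92827291-92853420, and Mmp3 (stromelysin 1, ENSMUSG00000043613) at chr9:7445822-7455975. The membrane-type enzymes Mmp14 (ENSMUSG00000000957) and Mmp15 (ENSMUSG00000031790) lie at chr14:54431612-54445364 and chr8:95352268-95375080. Timp1 (ENSMUSG00000001131) lies at chrX:20870166-20874735 and Timp3 (ENSMUSG00000020044) at chr10:86300372-86349506. These 6 genes are on the forward strand of GRCm38. Timp2 (ENSMUSG00000017466) at chr11:118301069-118355740 and Timp4 (ENSMUSG00000030317) at chr6:115241892-115252205 are on the reverse strand. All 8 are protein-coding. Timp1, Timp3 and Timp4 each lie inside a synapsin gene on the opposite strand, Syn1, Syn3 and Syn2.

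The 3 genes that passed a test in any comparison, Timp1, Mmp3 and Mmp15, are shown by the 120 bases before their starts, because Timp1 and Mmp3 were called higher and Mmp15 was called lower. The stretches are from RefSeq's promoter windows on GRCm38.p6, forward strand, 5′ to 3′, at chrX:20870046-20870165, chr9:7445702-7445821 and chr8:95352148-95352267. The Mmp15 stretch ends 28 bases before the RefSeq start, where the GENCODE gene begins. Capitals mark matches to 3 motifs searched on both strands of the 250 bases before each RefSeq start: AP-1 (TGANTCA), Sp1 (GGGCGG) and the TATA box (TATAAA).
Timp1: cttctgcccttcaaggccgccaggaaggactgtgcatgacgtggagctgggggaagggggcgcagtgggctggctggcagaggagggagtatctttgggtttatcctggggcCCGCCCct
Mmp3: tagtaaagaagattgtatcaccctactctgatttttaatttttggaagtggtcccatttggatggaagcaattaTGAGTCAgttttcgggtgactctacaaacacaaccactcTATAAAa
Mmp15: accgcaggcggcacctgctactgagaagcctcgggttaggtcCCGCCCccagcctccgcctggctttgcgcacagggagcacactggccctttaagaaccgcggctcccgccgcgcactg
In Mmp3 the AP-1 match began 46 bases before the RefSeq start and the TATA match 7 bases before it, with no Sp1 match in the window. Timp1 and Mmp15 each held 1 Sp1 match, on the reverse strand, beginning 8 and 106 bases before the start. Of 32851 RefSeq windows of the same 250 bases, 6.75% held the AP-1 letters, 32.7% the Sp1 letters and 12.4% the TATA letters, so the Sp1 match is common. Windows were found for 7 of the 8 genes. Mmp14, Timp2 and Timp3 held Sp1 matches as well, and Timp4 held none of the 3 motifs. A match is a description of the letters.

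The libraries held 18571060 to 29014362 estimated reads, and the 4 control libraries were the shallowest, with at most 21223263. Cardiomyocyte markers were abundant in all 21, from 48722 to 69309 CPM (reads scaled to the total of each library) summed over 8 genes. In 5 libraries (control 3, renin-alone 1 and 3, diet-alone 3 and combined 3) atrial genes such as Myl4 and Myl7 stood apart, with a mean log2 CPM over the atrial markers of 6.14 to 7.37 against 0.96 or less in the other 16. The same 5 also stood apart in adipocyte markers, at 0.196 to 2.64 against -1.01 or less. Their means of fibroblast markers (6.24 against 5.84) and of smooth muscle and pericyte markers (6.03 against 5.67) were higher too, with overlapping ranges. All 6 renin-alone libraries were higher in 15 markers of central neurons and glia, summing to 413 to 650 CPM against 143 to 244 in the other 15 libraries. A score of clock genes (evening genes minus day genes, in log2 CPM) was lower in both renin groups, at 2.22 to 3.38 in combined and 3.10 to 3.36 in renin-alone, than the 3.56 to 3.92 of control. In heart pieces, fewer cells of a type and less RNA per cell cannot be told apart.

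On a scale corrected for transcript length (TPM, also scaled to the total of each library), the inhibitors were the more abundant class. In control Timp3 was highest at 46.5 ± 9.34 TPM (SD, n = 4), followed by Timp2 at 26.4 ± 7.59, Mmp15 at 22.5 ± 1.73, Mmp2 at 15.1 ± 3.39 and Timp4 at 13.1 ± 1.93. Mmp14 at 4.52 ± 0.809, Timp1 at 2.56 ± 1.17 and Mmp3 at 2.56 ± 1.32 were the lowest. The ranges of Timp3 and Timp2, of Timp2 and Mmp15, of Mmp2 and Timp4 and of the last 3 genes overlapped between neighbours, and only the steps from Mmp15 to Mmp2, whose lowest and highest libraries were 19.91 and 19.88 TPM, and from Timp4 to Mmp14 had no overlap. The order was the same in diet-alone. In both renin groups the mean of Mmp2 stood above that of Mmp15 and the mean of Timp1 above that of Mmp14, with overlapping ranges in each case.

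**Figure D1:**
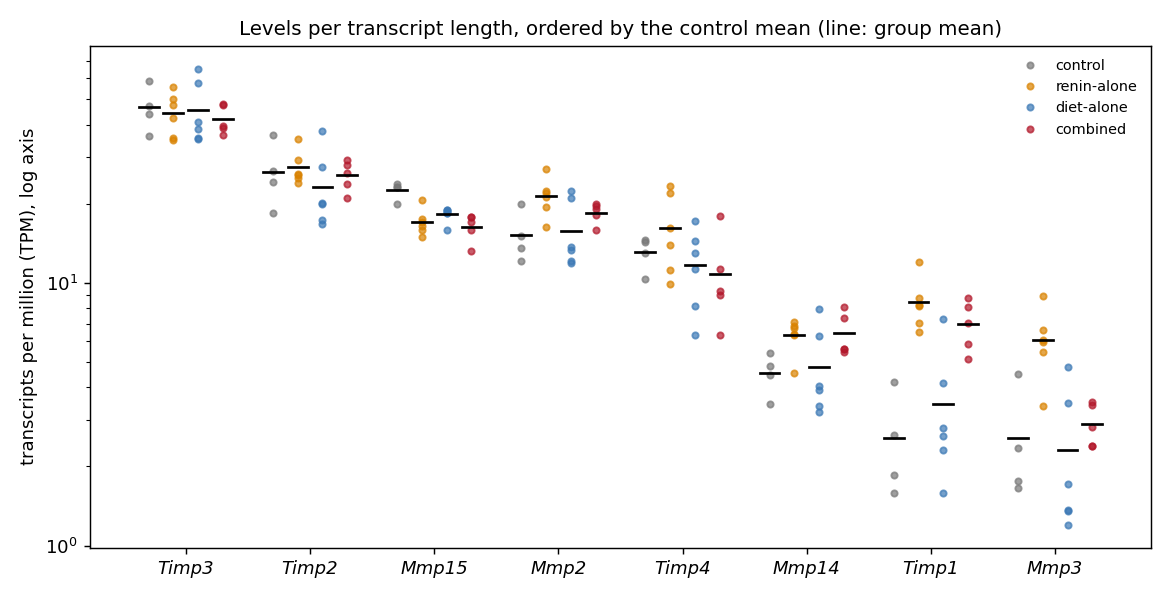
Level of each gene in TPM (log axis) in each library, by group, with the group mean as a line and the genes ordered by their control mean. Timp3 had the highest mean in every group, and Timp1 moved from a mean of 2.56 TPM in control to 8.44 in renin-alone and 6.98 in combined.

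The summed level of the 4 TIMPs was about the same multiple of the summed level of the 4 MMPs in each group. In TPM the ratio was 1.97 ± 0.258 (SD, n = 4) in control, 1.94 ± 0.475 (n = 6) in renin-alone, 2.02 ± 0.263 (n = 6) in diet-alone and 1.93 ± 0.157 (n = 5) in combined, and the 4 ranges overlapped. Single pairs could differ from the sum: the ratio of Timp2 to Mmp2 was 1.52 to 1.84 in control, above the 1.16 to 1.51 of renin-alone, and overlapped with the 1.32 to 1.69 of diet-alone and the 1.31 to 1.55 of combined. Within the TIMPs the share of Timp1 was 2.79% ± 0.703 of the TPM in control and 3.97% ± 1.54 in diet-alone. It was 8.71% ± 0.978 in renin-alone, from 7.57% to 9.94%, and 8.22% ± 1.66 in combined, from 5.64% to 10.1%. Timp3, the inhibitor that stays bound to the matrix, made up 52.5% ± 3.19 of the TIMP level in control and 45.8% ± 2.98 in renin-alone. Their ranges overlapped, at 48.5% to 55.7% and 41.7% to 49.4%. It was 54.4% ± 1.68 in diet-alone and 49.2% ± 1.94 in combined. TPM sums of these genes say nothing of protein or enzyme activity, which were not measured.

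Timp1, the secreted inhibitor that is raised in many injured and inflamed tissues, was higher in both renin groups than in control. Its level was 1.29, 1.83, 2.80 and 1.12 CPM in the 4 control libraries and 5.65, 4.41, 3.59, 5.86 and 4.92 CPM in the 5 combined libraries. In renin-alone it ran from 4.32 to 7.34 CPM with a median of 5.46, and in diet-alone from 1.35 to 5.04 with a median of 2.09. Every library of the 2 renin groups lay above every control library. Diet-alone lay among the controls or just above, except for replicate 6 at 5.04 CPM, which was inside the range of both renin groups.

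The Timp1 difference was 2.78-fold in combined against control (log2 fold change 1.47, SE 0.31, edgeR adjusted p = 0.00561). In renin-alone against control it was 3.11-fold (log2 fold change 1.64, SE 0.30, edgeR adjusted p = 0.000403). Combined against diet-alone gave 1.91-fold (log2 fold change 0.94, SE 0.26, edgeR adjusted p = 0.0240), but the groups overlapped, with 2 of 5 combined libraries above all 6 diet-alone libraries. That last call was lost without combined replicate 1 (adjusted p = 0.0674) or replicate 5 (adjusted p = 0.0553), and when those 2 groups were fitted alone (adjusted p = 0.0689). Diet-alone against control was 0.54 (SE 0.31) on the log2 scale and did not pass (edgeR adjusted p = 0.550). Timp1 rested on 23 to 217 estimated reads per library, the fewest of the 8 genes by mean.

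Mmp15, the membrane-type enzyme also called MT2-MMP, was lower in both renin groups. Its level was 137, 140, 119 and 142 CPM in control and 96.6, 79.8, 104, 107 and 92.9 CPM in combined. In renin-alone it ran from 84.7 to 114 CPM with a median of 95.4, and in diet-alone from 94.0 to 136 with a median of 124. Each library of the 2 renin groups lay below each control library. Against diet-alone 2 of 5 combined libraries were lower than all 6, and diet-alone replicate 6, the lowest of its group for Mmp15, was also the highest of its group for Timp1.

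In log2 fold change Mmp15 stood at -0.49 (SE 0.10, edgeR adjusted p = 0.00470) in combined against control and -0.50 (SE 0.10, edgeR adjusted p = 0.000620) in renin-alone against control, a level 0.713 and 0.71 times that of control. It was -0.31 (SE 0.09, edgeR adjusted p = 0.0292) in combined against diet-alone. This smaller difference lost its call without any one of 6 libraries (diet-alone 2, 4 or 5, combined 1, 2 or 5; adjusted p 0.0570 to 0.0998), with those 2 groups alone (0.0851) and with limma on the deposited signal (0.0644). Diet-alone against control gave -0.17 (SE 0.10, edgeR adjusted p = 0.537).

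**Figure D2:**
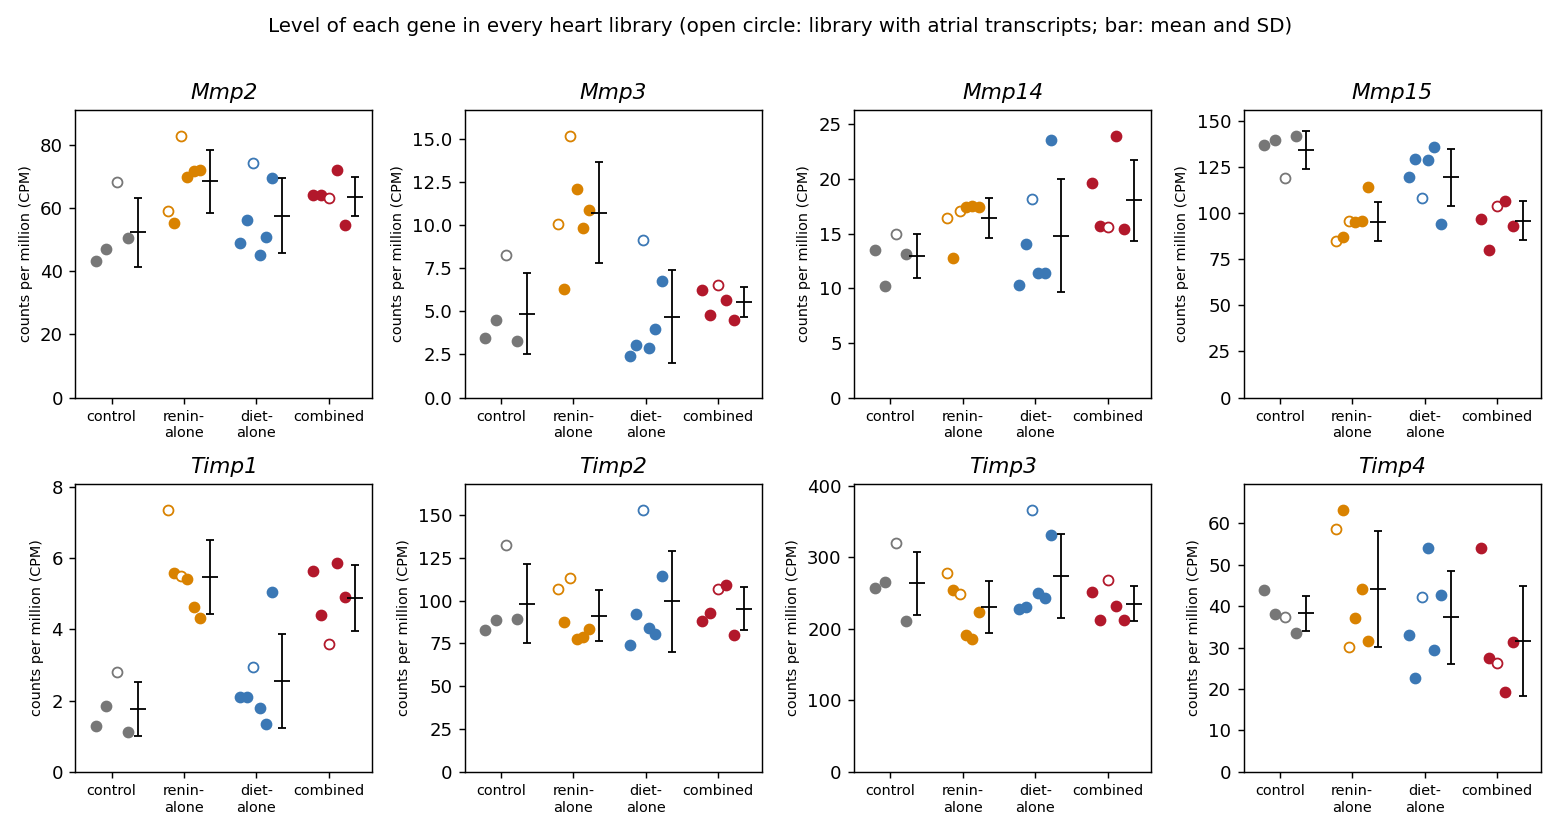
CPM of each of the 8 genes in every library by group, with the mean and SD beside each group and open circles for the 5 libraries with atrial transcripts. Timp1 was above and Mmp15 below all control libraries in each library of the 2 renin groups, while Timp2, Timp3 and Timp4 overlapped between all groups.

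The summed level of the cardiomyocyte markers was also lower in both renin groups than in control, and its members did not all follow Mmp15. The sum was 57620 to 69309 CPM in control, 52247 to 55891 in renin-alone, 53002 to 63172 in diet-alone and 48722 to 54022 in combined, with no marker at 0. In combined against control 5 of 8 of them were called lower (log2 fold changes of -0.48 for Myh6, -0.48 for Tnni3, -0.43 for Tnnt2, -0.41 for Myl2 and -0.32 for Pln) and none higher, where 4.25% of all genes were called lower. For renin-alone against control 2 of 8 were called lower (Actc1 and Myh6), beside 3.36% of all genes. In combined against diet-alone 5 were called lower and 1, Mybpc3, higher (0.43), beside 5.08% and 6.07% of all genes. In combined against renin-alone, where Mmp15 differed by 0.01 (edgeR adjusted p = 0.966), 4 were called lower and 1, Actc1, higher (0.42), beside 12.8% and 9.8% of all genes. Their part in the Mmp15 result was not tested.

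Mmp3, stromelysin 1, which cuts many matrix proteins and activates other pro-MMPs, was highest in renin-alone. It was at 3.44, 4.50, 8.25 and 3.25 CPM in control and at 6.24, 4.79, 6.50, 5.65 and 4.50 CPM in combined. In renin-alone it ran from 6.27 to 15.2 CPM with a median of 10.5, and in diet-alone from 2.40 to 9.14 with a median of 3.49. Of the 6 renin-alone libraries 5 were above every control. In each of the 4 groups the highest value was in a library with atrial transcripts.

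Mmp3 rose 2.21-fold in renin-alone against control (log2 fold change 1.14, SE 0.35, edgeR adjusted p = 0.0343) and was lower in combined than in renin-alone (log2 fold change -0.95, SE 0.31, edgeR adjusted p = 0.0344), where 4 of 5 libraries lay below all 6. Both calls were near the threshold. The first was lost without control 1, 2 or 4 or renin-alone 3, 4 or 6 (adjusted p 0.0502 to 0.118) with no filter on low counts (0.0631) and with the clock score (0.186) or the central nervous score (0.750) in the model, and without the 5 libraries with atrial transcripts it was 1.41 (adjusted p = 0.00292). The second was lost without renin-alone 3, 4 or 6 or any combined library other than replicate 3 (adjusted p 0.0504 to 0.0842) with no filter (0.0597) and with the clock score (0.0672) or the central nervous score (0.987) in the model. In combined against control Mmp3 differed by 0.19 (SE 0.36, edgeR adjusted p = 0.794).

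Mmp2, the gelatinase that TIMP2 and MMP14 help to activate, did not pass in any comparison with all 21 libraries by edgeR as fitted here. It was at 43.4, 47.2, 68.3 and 50.8 CPM in control, at 55.5 to 83.0 with a median of 70.9 in renin-alone, at 45.2 to 74.5 with a median of 53.7 in diet-alone, and at 64.3, 64.3, 63.2, 72.3 and 54.7 in combined. The control library at 68.3 CPM was the one with atrial transcripts. Against control, the log2 fold change of Mmp2 was 0.39 (SE 0.15, edgeR adjusted p = 0.0851) in renin-alone and 0.28 (SE 0.15, edgeR adjusted p = 0.261) in combined. Without the 5 libraries with atrial transcripts these were 0.53 (adjusted p = 0.00831) and 0.42 (adjusted p = 0.0440), and without control 3 alone the first was 0.54 (adjusted p = 0.0133). The first was also called by DESeq2 (0.40, adjusted p = 0.0391), with the atrial score in the edgeR model (0.37, adjusted p = 0.0493) and with a replicate block (0.38, adjusted p = 0.0281). Replicate 3 was a library with atrial transcripts in every group, so the block and the atrial fits are not separate checks.

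Mmp14, the membrane-type enzyme MT1-MMP, did not pass either. It was at 13.5, 10.2, 15.0 and 13.1 CPM in control and at 19.6, 15.7, 15.6, 23.9 and 15.4 CPM in combined, groups that did not overlap. In renin-alone it ran from 12.7 to 17.5 CPM (median 17.2) and in diet-alone from 10.3 to 23.6 (median 12.7). The log2 fold change of combined against control was 0.48 (SE 0.20), with an unadjusted p of 0.0303 from edgeR and an adjusted p of 0.160. In renin-alone against control it was 0.34 (SE 0.20, edgeR adjusted p = 0.305), or 0.36 (adjusted p = 0.0443) with those 2 groups fitted alone.

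The other 3 inhibitors passed in no comparison. Timp2 ran from 73.8 to 153 CPM over the 21 libraries, with group medians of 89.0 in control, 85.6 in renin-alone, 88.1 in diet-alone and 93.1 in combined. Timp3 ran from 185 to 366 CPM, with medians of 261, 236, 246 and 232 in the same order. The highest Timp3 value of each of the 4 groups was in a library with atrial transcripts (320 CPM in control, 279 in renin-alone, 366 in diet-alone and 268 in combined), as was the highest Timp2 value of control (132), renin-alone (113) and diet-alone (153). Timp4, the inhibitor known for its high level in heart, ran from 19.3 to 63.1 CPM, with medians of 37.8, 40.6, 37.6 and 27.4. Its spread was wide in 3 groups, with an SD of 13.9 CPM in renin-alone, 11.2 in diet-alone and 13.3 in combined against 4.26 in control. The lowest adjusted p of these 3 genes in any comparison was 0.214, for Timp4 in combined against renin-alone (log2 fold change -0.48, SE 0.26), and without combined 1 that became -0.78 with an adjusted p of 0.0346. Against control Timp2 was -0.11, Timp3 -0.19 and Timp4 0.21 in renin-alone, and -0.04, -0.16 and -0.28 in combined. Their values moved widely with the scores described above as covariates. In renin-alone against control Timp2 went from -0.11 to -0.83 and Timp3 from -0.19 to -0.79 with the central nervous score, and in combined against control Timp4 went from -0.28 to -0.97 with the clock score (edgeR adjusted p = 0.695). None of these 3 was called in any alternative in those comparisons.

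By comparison, 1 gene rose (Timp1) and 1 fell (Mmp15) of 8 in combined against control, where 8.29% of 15216 tested genes were called (4.05% higher, 4.25% lower). The median log2 fold change of the 8 was 0.07, and 0.01 over all tested genes. In renin-alone against control 2 rose (Timp1 and Mmp3) and 1 fell (Mmp15), with 13.5% of all genes called (10.1% higher, 3.36% lower), a median of 0.27 over the 8 and -0.03 over all. For combined against diet-alone 1 rose and 1 fell, with 11.1% of all genes called (6.07% higher, 5.08% lower) and medians of 0.04 and -0.01. In combined against renin-alone 1 fell, with 22.6% called (9.8% higher, 12.8% lower) and medians of -0.05 and 0.02, so the share of the 8 genes was under that of all genes.

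Diet-alone against control called none of the 8 by edgeR, none at an unadjusted p under 0.05, and none by DESeq2 or limma, where 0.0657% of all genes were called by edgeR (0.0131% higher, 0.0526% lower). Besides Timp1 and Mmp15, given above, the log2 fold changes were 0.19 for Mmp14, 0.14 for Mmp2, 0.06 for Timp3, 0.02 for Timp2, -0.03 for Timp4 and -0.04 for Mmp3. The interaction of diet and renin, which asks whether the effect of renin differed between the diets, also called none by edgeR, DESeq2 or limma and none at an unadjusted p under 0.05, with 10.4% of all genes called (3.14% higher, 7.3% lower). The interaction was -0.91 (SE 0.47, edgeR adjusted p = 0.266) for Mmp3, -0.70 (SE 0.40, edgeR adjusted p = 0.308) for Timp1 and 0.18 (SE 0.13, edgeR adjusted p = 0.465) for Mmp15. It was -0.45 for Timp4, -0.24 for Mmp2, -0.06 for Mmp14, -0.03 for Timp3 and 0.04 for Timp2. A difference between diets in the renin effect on these genes was therefore not shown, and with SEs of this size it was not excluded.

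**Figure D3:**
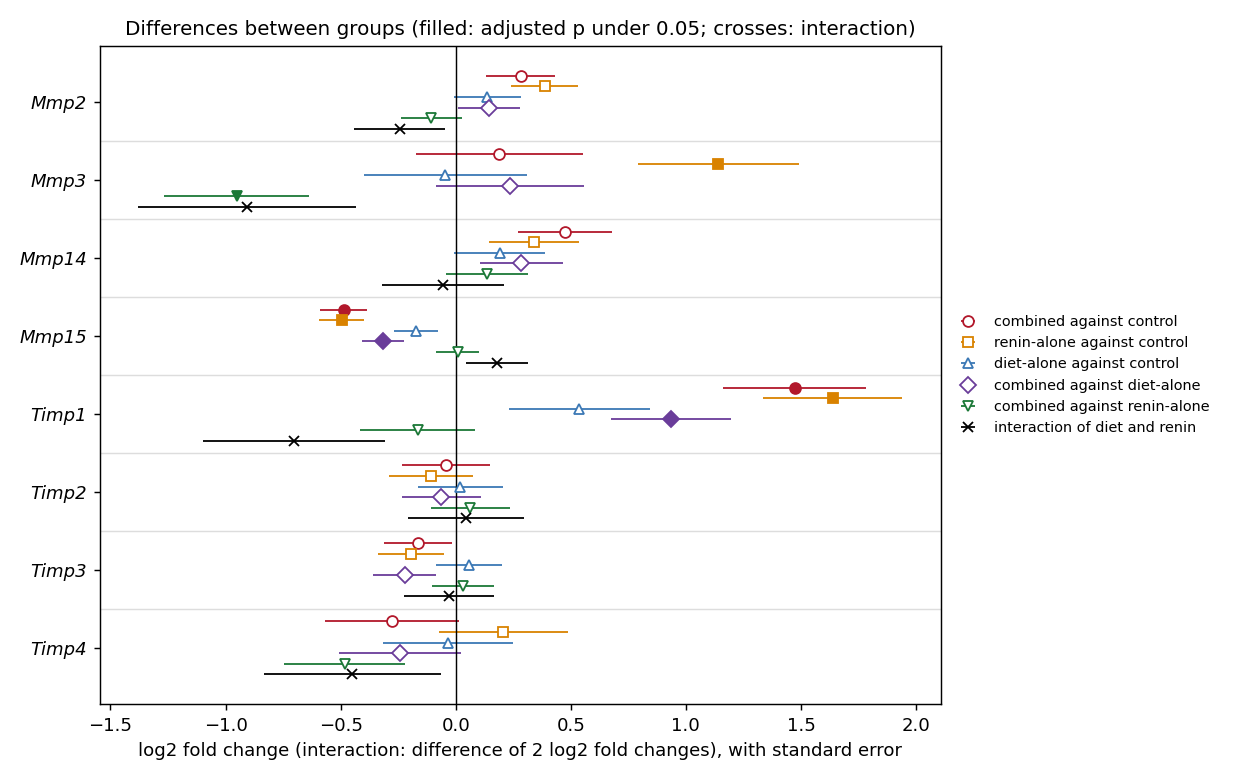
Log2 fold change and standard error of each gene in 5 comparisons, with the diet by renin interaction as a cross; filled symbols have an adjusted p under 0.05. Filled symbols occur for Timp1 and Mmp15 in the 3 comparisons of a renin group with a group on no renin, and for Mmp3 in renin-alone against control and combined against renin-alone. The first 3 comparisons share the control libraries.

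Renin-alone against control and combined against diet-alone share no library, but both come from 1 fit with a spread estimated over all 21. Timp1 was 1.64 and 0.94 and Mmp15 -0.50 and -0.31 in these 2 comparisons. Both genes thus passed in that fit, in the same direction, for renin on chow and for renin on the high-fat diet. On the high-fat diet the calls were less steady. Timp1 lost its call in 4 of 32 alternatives and Mmp15 in 9 of 32, and both lost it with those 2 groups fitted alone. The other 6 genes in combined against diet-alone were Mmp14 (0.29), Mmp3 (0.23), Mmp2 (0.15), Timp2 (-0.06), Timp3 (-0.22) and Timp4 (-0.24), and none of them passed. In combined against renin-alone Mmp14 (0.14), Timp2 (0.06), Timp3 (0.03), Mmp2 (-0.11) and Timp1 (-0.16) did not pass.

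The groups also differed in the scores given above. With the clock score added to the model, the log2 fold changes in combined against control were 1.24 for Timp1 (edgeR adjusted p = 0.660) and -0.44 for Mmp15 (0.660), and no gene of the whole table was called. In combined against diet-alone they were 0.76 (0.749) and -0.28 (0.727). In renin-alone against control Timp1 and Mmp15 kept their calls with the clock score, and Mmp3 did not. Adding the central nervous score to the model gave values in renin-alone against control of 1.54 for Timp1 (edgeR adjusted p = 0.583), -0.38 for Mmp15 (0.724) and 1.27 for Mmp3 (0.750), and 33 genes of the table were called. The scores do not overlap between those groups and control, so score and group cannot be told apart there. In combined against control 0 of 15 central nervous markers were called, beside 8.29% of all genes. Their median log2 fold change was 0.32, and 0.01 over all genes. Their summed level was 143 to 238 CPM in combined and 178 to 188 in control. Timp1 and Mmp15 were also called there in the model with that score, and the part of these markers was not tested. Without the 5 libraries with atrial transcripts, Timp1 was 1.87 (adjusted p = 0.00276) and Mmp15 -0.58 (0.00586) in combined against control.

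Reads from the synapsin genes could bear on 3 of the inhibitors, because the strand setting of the counting is not given in the sources used here. Syn1, in whose intron Timp1 lies, shares no exon base with it. Its mean level was 2.12 CPM in control, 10.2 in renin-alone, 2.82 in diet-alone and 2.77 in combined. Timp1 was 1.76 ± 0.759 CPM (SD, n = 4), 5.47 ± 1.05 (n = 6), 2.55 ± 1.33 (n = 6) and 4.88 ± 0.927 (n = 5) in the same order, so Syn1 was high with Timp1 in renin-alone and near its control level in combined. The part of Syn1 reads in the Timp1 values was not tested. Syn2, which shares 90 exon bases with Timp4, was at 4.10, 13.2, 4.82 and 6.42 CPM in the 4 groups in the same order, and Syn3, which shares 1733 exon bases with Timp3, was under 1 CPM by mean in each group.

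Timp1 was read as 2 coding transcripts. Timp1-201 made up 52.8% ± 5.95 of its TPM in control (SD, n = 4), 42.3% ± 6.09 in renin-alone (n = 6), 40.3% ± 20.5 in diet-alone (n = 6) and 36.7% ± 9.54 in combined (n = 5), with Timp1-202 as the rest. The ranges of control (47.0% to 59.4%) and combined (20.8% to 44.6%) did not overlap, though the estimate divides few reads between transcripts that share most of their sequence. Timp4 was divided between Timp4-202 (63.5% of TPM over all libraries) and Timp4-201 (36.5%) in nearly fixed shares. Timp2-201 made up 83.5% of Timp2, and 1 transcript gave at least 92.4% of TPM for each of the other 5 genes.

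Within groups several of the genes varied together, and Mmp15 varied against Timp1. Over deviations of log2 CPM from the group means in 21 libraries, Pearson's r was 0.86 between Mmp2 and Mmp3, 0.77 between Mmp2 and Mmp14 and 0.83 between Timp2 and Timp3, and 0.77, 0.85 and 0.61 in the 16 libraries without atrial transcripts. Mmp15 ran against Timp1 with r = -0.71, or -0.61 in those 16, and -0.57 without diet-alone 6. Its r with Mmp14 was -0.31, and 0.03 without diet-alone 6. All points share the libraries' dissection and depth, and these values are descriptions.

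**Figure D4:**
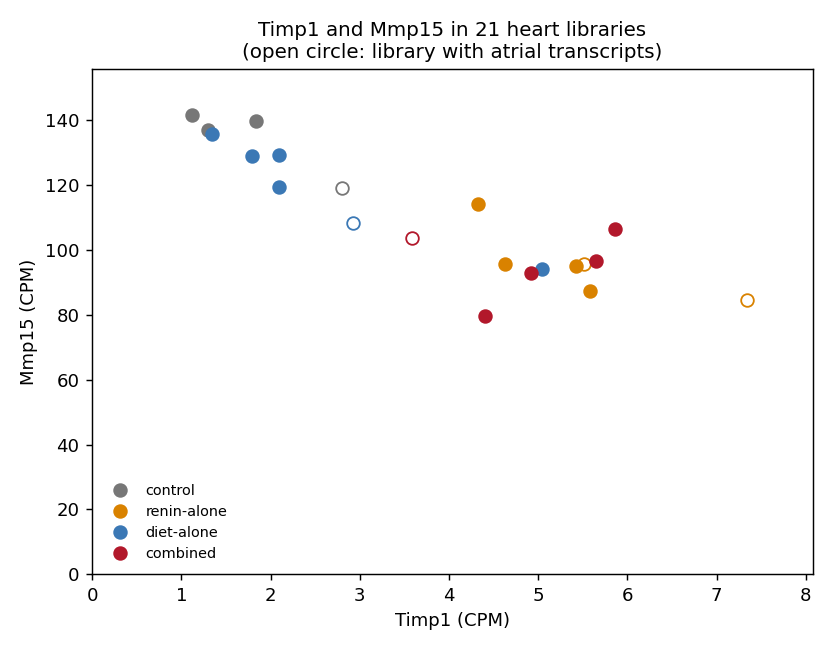
CPM of Timp1 (x axis) and Mmp15 (y axis) in the 21 libraries, coloured by group, with open circles for libraries with atrial transcripts. Controls sit at 1.12 to 2.80 CPM of Timp1 and 119 to 142 CPM of Mmp15, and diet-alone 6 (5.04 and 94.0) sits among the libraries of the 2 renin groups.

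The fibroblast score, a mean log2 CPM over 8 markers such as Pdgfra, Dcn and Tcf21, followed 6 of the genes within groups. Its r was 0.91 with Timp2, 0.88 with Mmp3, 0.85 with Mmp2, 0.75 with Timp3, 0.74 with Mmp14 and 0.72 with Timp1, and 0.75, 0.75, 0.83, 0.50, 0.90 and 0.74 in the 16 libraries without atrial transcripts. Timp4 gave 0.01. Mmp15 gave -0.53 with the fibroblast score and 0.60 with the cardiomyocyte score, which were -0.41 and 0.50 without diet-alone 6. Timp1 also gave 0.76 with the macrophage score, 0.63 without diet-alone 6.

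The summed level of the fibroblast markers overlapped between all 4 groups, at 1080 to 2153 CPM in control, 968 to 1617 in renin-alone, 1307 to 2537 in diet-alone and 1399 to 1814 in combined. The fibroblast score, which weights the 8 markers equally, overlapped less: it was 6.10 to 6.32 in combined, above all of renin-alone at 5.42 to 6.08, and inside the ranges of control (5.56 to 6.38) and diet-alone (5.66 to 6.605). Of the 8, 2 were called higher in combined against control (Col15a1 at 0.78 and Mfap5 at 1.18 in log2 fold change) where 4.05% of all genes were, and 0 in either direction in renin-alone against control, beside 13.5% of all genes. The same 2 were called higher in combined against renin-alone (0.78 and 1.103), beside 9.8% of all genes, and Col15a1 alone in combined against diet-alone (0.56), beside 6.07%. Macrophage markers summed to 105 to 145 CPM in control, 99.3 to 121 in renin-alone and 115 to 137 in combined. Of 8 none was called in combined against control, beside 8.29% of all genes. In renin-alone against control none was called higher and 1 (Mrc1, -0.47) was called lower, beside 10.1% and 3.36% of all genes. The part of these cells in the Timp1 result was not tested.

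**Figure D5:**
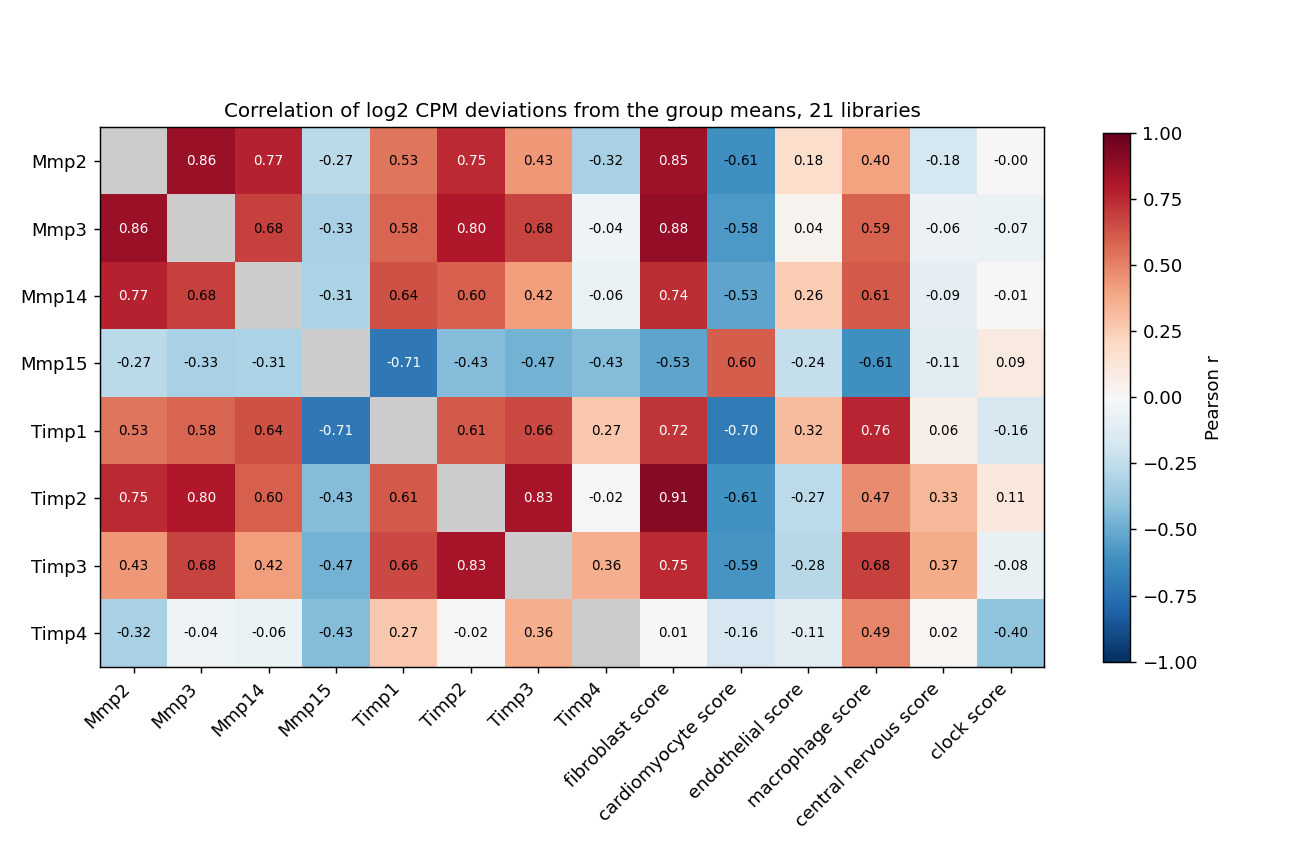
Pearson's r of deviations from the group means, in log2 CPM, between the 8 genes and between each gene and 6 marker scores, over 21 libraries. Mmp2, Mmp3, Mmp14, Timp1, Timp2 and Timp3 had an r of 0.72 to 0.91 with the fibroblast score, while Mmp15 was negative with every other gene shown (with Mmp14 it was 0.03 without diet-alone 6).

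Across all 21 libraries and 8101 genes with a mean of at least 10 CPM, the genes most like each member, by Pearson's r of log2 CPM with group differences left in, were these. Mmp2 was nearest to Igfbp5 (0.89), Cald1 (0.83) and Scpep1 (0.83), and Mmp3 to Npc2 (0.92), Antxr1 (0.91) and Kirrel (0.90). Mmp14 was nearest to Col16a1 (0.84), Sfxn3 (0.80) and Fstl1 (0.79), and Mmp15 to Ghr (0.89), Cs (0.88) and Ctnna1 (0.88). Timp1 was nearest to Fmr1 (0.86), Mib1 (0.85) and Cd44 (0.84), Timp2 to Dcn (0.93) and Vim (0.90), Timp3 to Lyve1 (0.86), Slc43a3 (0.82) and Rnase4 (0.82), and Timp4 to Sult1a1 (0.76), Agfg2 (0.76) and Tent5a (0.75).

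The rest of the MMP family was sparse. Of 19 other Mmp genes 10 had enough reads to be tested, and the counts stand beside 8.29% of all genes called in combined and 13.5% in renin-alone against control. In combined against control Mmp28, a secreted enzyme also known as epilysin, rose by 0.66 in log2 fold change (edgeR adjusted p = 0.0152) and Mmp9, gelatinase B, fell by 1.35 to a mean of 0.549 CPM (adjusted p = 0.0450). Against control, 3 of 10 rose in renin-alone and none fell: Mmp17, a membrane-anchored enzyme (1.05, adjusted p = 0.000294), Mmp13, a collagenase (1.48, adjusted p = 0.000519), and Mmp24, a membrane-type enzyme known from brain (2.45, adjusted p = 0.00197). All 3 were lower in combined than in renin-alone (log2 fold changes of -2.22 for Mmp13, -0.82 for Mmp17 and -1.59 for Mmp24), where 12.8% of all genes were called lower. The interaction was called for Mmp13 (-1.76, adjusted p = 0.00413) and Mmp17 (-1.14, adjusted p = 0.00437), where 7.3% of all genes were called lower. Renin-alone was also the group with the higher central nervous markers, and their part in these values was not tested.

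Related proteases of the ADAM and ADAMTS families gave 4 higher and 0 lower of 23 tested in combined against control: Adamts20 (log2 fold change 2.14), Adamts4 (1.41), Adam12 (1.34) and Adam9 (0.26), where 4.05% of all genes were called higher. In renin-alone against control 2 rose, Adamts4 (1.51) and Adamts20 (1.63), and none fell, where 10.1% of all genes rose, so this count was not above the background. Adamts4 is an aggrecanase. Its mean was 0.686 CPM in control, 1.98 in renin-alone and 1.84 in combined. In combined against diet-alone 6 of 23 were higher and 1, Adamts7, was lower (-0.79), beside 6.07% and 5.08% of all genes.

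Among 23 tested activators, inducers and other inhibitors of the system, those higher in renin-alone against control included Spock1 (log2 fold change 2.40), Lcn2 (1.72), Plau, which encodes urokinase (1.49), Spock2 (1.02) and Plaur, the urokinase receptor (0.71). Pcsk6, a proprotein convertase, fell by 0.38 and was the 1 gene of the list called lower. Of all genes 10.1% were called higher and 3.36% lower in that comparison. The interaction was called lower for 5 of 23, Spock1, Lcn2, Plau, Spock2 and Plaur, from -2.57 to -0.77, beside 7.3% of all genes. Spock1 and Spock2 encode proteoglycans that are also made in brain, and the central nervous markers moved in the same group.

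Among 22 matrix substrates 9 rose and 0 fell in combined against control, led by Col5a2 (0.996, edgeR adjusted p = 0.00634), Sparc (0.62), Col4a1 (0.64), Col4a2 (0.54), Col5a1 (0.50) and Lama2 (0.29), where 4.05% of all genes rose. For renin-alone against control 2 rose, Spp1 or osteopontin (2.03) and Fn1 or fibronectin (1.09), and 1 fell, Hspg2 or perlecan (-0.21), and 10.1% and 3.36% of all genes did so. The median log2 fold change of the 22 was 0.58 in the first comparison and -0.08 in the second, beside 0.01 and -0.03 over all genes. Timp1 and Mmp15 were called in both.

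Over the same lists, diet-alone against control called no gene by edgeR. Combined against diet-alone called 0 of 10 other Mmp genes, Ctsl (0.22) higher and Pcsk6 (-0.25) lower among the activators and inhibitors, and 7 higher and 0 lower of the 22 substrates (Col4a1 0.64, Col5a2 0.79, Col4a2 0.52, Sparc 0.52, Fbn1 0.93 and Lamc1 0.36 first), where 6.07% of all genes were called higher and 5.08% lower. Combined against renin-alone called 6 higher and 0 lower of the ADAM and ADAMTS genes, 2 higher and 5 lower of the activators and inhibitors, and 16 higher and 2 lower of the substrates, where 22.6% of all genes were called (9.8% higher, 12.8% lower). The 2 lower substrates were Spp1 (-2.23) and Fn1 (-0.81), and those higher included the basement membrane chains Lama2 (0.45), Col4a2 (0.65) and Col4a1 (0.76). Of the 8 genes described above, Mmp3 alone was called in that comparison, and it was lower, as were Mmp13, Mmp17 and Mmp24.

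In the authors' deposited table, the comparison headed by the high-fat diet with virus names no reference group, and there Timp1 differed by 1.18 in log2 fold change (adjusted p = 0.000334) and Mmp15 by -0.38 (adjusted p = 0.00147). In the authors' deposited table the other 6 genes had log2 fold changes from -0.08 to 0.23 with adjusted p of at least 0.106, Mmp14 being the lowest of them.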

How the data were processed

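RNA from 21 mouse hearts was sequenced, and reads were assigned to transcripts by the authors with Salmon 1.10.2 and compared with DESeq2 1.40.2 on GRCm38, per the submitters' processing notes. The deposited tables hold, per the file headers, an estimated count and a TPM value per transcript for each library. A deposited gene matrix holds a normalized signal per library and, in 2 more columns, the authors' log2 fold changes and adjusted p-values for 1 comparison. The library's strandedness and the Salmon index are not given in the sources used here.

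Estimated counts were summed to genes with GENCODE M21 (98.0% of transcripts matched, and 0.854% to 0.925% of reads per library did not), rounded, and tested in R 4.3.3 with edgeR 4.0.16 (TMM factors, filterByExpr, quasi-likelihood test, 1 term per group over all 21 libraries, Benjamini-Hochberg adjustment over 15216 genes, called at an adjusted p under 0.05, two-sided). The kept genes held 99.96% of reads. CPM values use TMM-adjusted totals, and log2 CPM uses a prior count of 2. The alternatives were DESeq2 1.42.0, limma 3.58.1 on log2(signal + 1) for genes with a mean signal of at least 1, upper-quartile factors, no filter, a replicate block, the compared groups alone, thinning, 3 score covariates and leaving out libraries. The code was tested on simulated data. TPM and CPM are compared between libraries as relative levels only.

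The labels name libraries by replicate number, and each library carries an identifier of its own in the file headers, whose meaning is not stated. The study's text gives 4 to 6 mice per group. p-values measure the spread between these libraries.

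All 8 genes are named in each comparison. From 4 fixed lists, genes called in a comparison are named up to 6 per list, lowest adjusted p first, and the 3 genes of most similar pattern are named per gene. Some genes that these rules name are not reported here. The genes and lists were chosen with earlier results of these data known. The list entry Ngal matched no gene, and its symbol Lcn2 is in the list.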

Additional observations from a re-analysis of the deposited data

Results flagged for a closer look

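In 3 of 32 sets of values (8 genes in 4 groups) 1 library lay far from the others of its group by Dixon's test at the 95% level. Chance flags about 1 in 20 groups. Mmp14 in renin-alone replicate 2 was 12.7 CPM, the lowest of 6, with the others from 16.4 to 17.5 CPM. Mmp15 in renin-alone replicate 6 was 114 CPM, the highest of 6, with the others from 84.7 to 95.6 CPM, and it was still below the lowest control at 119 CPM. Timp2 in control replicate 3 was 132 CPM, the highest of 4, with the others from 83.1 to 89.3 CPM, and this library is 1 of the 5 with atrial transcripts.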

How the results depend on the processing

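Of the genes called, Timp1 and Mmp15 kept their calls in combined and in renin-alone against control without any single library. With the clock score as a covariate, the number of the 8 called fell to 0 in combined against control, against diet-alone and against renin-alone. With the central nervous score it fell to 0 in renin-alone against control and in combined against renin-alone. With the compared groups alone it was 0 in combined against diet-alone, with limma on the deposited signal it was 1 there (Timp1), and with no filter on low counts it was 0 in combined against renin-alone. Leaving out 1 library gave 0 to 2 called in combined against diet-alone and 0 to 1 in combined against renin-alone. Timp4 in renin-alone against control turned to -0.25 with the clock score as a covariate. Of 48 pairs of gene and comparison, 24 were never called and were under 0.2 in absolute log2 fold change, and 15 of these changed sign in at least 1 alternative. The causes were not tested. The fit without the 5 libraries with atrial transcripts was chosen after seeing the data, and called 3, 4, 0, 2, 1 and 0 genes in the 6 comparisons in the order of the report's plot of fold changes.

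Whether replicate numbers pair the libraries was not settled. Of 28 same-numbered pairs 11 had a correlation over 0.1 (median 0.0775, from -0.226 to 0.421), and 7 of 21 libraries correlated best with their own number. No value for differently numbered pairs is given here to set beside these. Replicate 3 was a library with atrial transcripts in every group. With the replicate block 2, 4, 0, 2, 1 and 0 of the 8 genes were called in the same order, Mmp2 being added in renin-alone against control (0.38, edgeR adjusted p = 0.0281). Timp1 had the fewest estimated reads of the 8 genes by mean, and as few as 23 in a control library.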
